A study of Caenorhabditis elegans with 6 samples.

Results

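The 9 genes described here encode the subunits of the condensins of the nematode Caenorhabditis elegans, including the condensin that carries out dosage compensation. They were chosen by their place in these complexes and found by symbol among 14605 worm gene rows of the count table, and each of the 9 also passed the filter on low counts. The genes smc-4, hcp-6, capg-2 and kle-2 belong to condensin complexes that act in mitosis and meiosis only. The gene dpy-27 belongs to the dosage compensation condensin only, and mix-1, dpy-26, dpy-28 and capg-1 are shared.

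Condensins are rings built from a pair of SMC ATPases, a kleisin that closes the ring and 2 HEAT-repeat proteins, and they fold chromosomes by extruding loops of DNA. Condensin I and condensin II compact chromosomes for division. In the worm another version, in which DPY-27 takes the place of SMC-4, binds both X chromosomes of somatic hermaphrodite cells and lowers their transcription to match the single X of males.

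Messenger RNA was counted in pools of 500 sorted cells with 4N DNA content from first-stage larvae, by an adapted CEL-seq protocol that barcodes and amplifies RNA and reads the 3′ ends of transcripts. The intestinal group had 3 libraries, and so did the non-intestinal group, a mixture of cells dividing in the first larval stage. All 6 libraries came from animals with the ccyIS27 transgene, in which elt-2p, the promoter of a gut GATA factor gene, drives mCherry-PH at the membrane and H2B-mCherry in the nucleus, joined by P2A. Intestinal nuclei divide in this stage without cytokinesis, so both groups may hold cells that go through mitosis or prepare for it. A DNA content of 4N alone does not show this.

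Worm gene counts ranged from 1222704 to 21040813 in intestinal and from 1576441 to 19968366 in non-intestinal libraries, with the fewest in the libraries numbered 3. The floor of 3 counts, which a count of 0 cannot exclude, was 2.40 CPM (counts per TMM-scaled library total) in intestinal replicate 3. The intestinal label held: the 10 intestinal markers summed to between 6871 and 7808 CPM in intestinal libraries and between 54.5 and 202 CPM in non-intestinal libraries. Germline markers summed to between 608 and 1029 CPM in intestinal and between 2251 and 3275 CPM in non-intestinal libraries. Of their 9 tested genes 8 were lower in intestinal cells (edgeR adjusted p under 0.05), beside 7.64% of all genes tested. The germline marker nos-2 and the muscle marker myo-3 were at 0 in each intestinal library, but the non-intestinal libraries held at most 2 counts of nos-2 and at most 1 count of myo-3. Muscle markers summed to between 801 and 2415 CPM in intestinal and between 1430 and 4012 CPM in non-intestinal libraries, epidermal and seam markers to between 77.5 and 190 against between 493 and 674 CPM, and neuronal markers to between 256 and 867 against between 359 and 535 CPM. Single genes made up much of some sums. In intestinal replicates 1, 2 and 3 unc-54 of the muscle list had 1460, 1051 and 689 CPM and car-1 of the germline list 648, 578 and 423 CPM. Neither was called by edgeR. The neuronal marker egl-21 had 261, 509 and 197 CPM in the same libraries. By edgeR egl-21 was called higher, as was elt-3 of the epidermal and seam list, where 1 gene was called lower. In pools, fewer cells of a type and less RNA per cell cannot be told apart.

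Non-intestinal replicate 3 stood apart for the condensin genes. Its log2 CPM lay above the mean of the non-intestinal libraries by a median of 1.35 over the 9 subunits, while replicate 2 lay below it (median deviation −1.07). In the same library, tested genes with transcripts of at least 4000 nt deviated by a median of 0.35 and those under 1000 nt by −0.26, against −0.22 and 0.33 in non-intestinal replicate 2. The longest transcript was at least 4000 nt for 6 of the 9 subunits. The part of transcript length in the results was not tested, and the subunit values that rest on non-intestinal replicate 3 are given with and without it.

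Transcripts of 8 of the 9 subunits had a log2 fold change below the median of all genes tested, and dpy-27 lay at that median. By edgeR, 1 of the 9 was called lower (mix-1) and 0 higher, beside 7.64% of the 9203 genes tested called lower and 13.5% called higher. Scaled by library totals alone, 1329 genes were lower and 1061 higher, in place of 703 and 1246. At an unadjusted p under 0.05, 6 of the 9 were lower, beside 16.2% of genes tested. The median log2 fold change of intestinal over non-intestinal cells was −2.16 for the 9 subunits and −0.34 for all genes tested. For the 536 tested genes with transcripts of at least 4000 nt the median was −0.83, and 9.51% of them were called lower by edgeR. Without non-intestinal replicate 3 the medians of the 9 subunits and of all genes tested were −1.24 and −0.049. No CPM value was shared between the ranges of the groups for 4 subunits, all lower in intestinal cells (capg-2, kle-2, dpy-26 and dpy-28), beside 23.5% of genes tested. Within libraries of the same replicate number, 7 subunits were lower in the intestinal library of each of the 3 numbers, beside 36.1% of genes tested.

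The replicate numbers were taken to pair the libraries. With the number as a block, edgeR called smc-4, hcp-6 and mix-1 lower, beside 9.84% of genes tested. DESeq2 called hcp-6, capg-2, kle-2, mix-1 and dpy-26 lower, beside 14.98% of genes tested. How many subunits were called therefore depended on the test, and the count was 0 when any 1 of 4 libraries was left out: intestinal replicate 1 or 3, or non-intestinal replicate 1 or 3. The fits called 2.20%, 4.75%, 3.67% and 4.94% of genes tested lower. At an unadjusted p under 0.05 edgeR still found 5, 7, 4 and 1 subunits lower in these 4 fits. The share of all genes tested at that unadjusted threshold was not counted for these fits, so the numbers cannot be set against it. Without both libraries numbered 3, which was chosen after the values were seen, 0 were called by edgeR beside 5.86% of genes tested. In that fit 4 subunits had an unadjusted p under 0.05 by edgeR, again with no such share counted. The median log2 fold change of the 9 was −1.34.

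**Figure D1:**
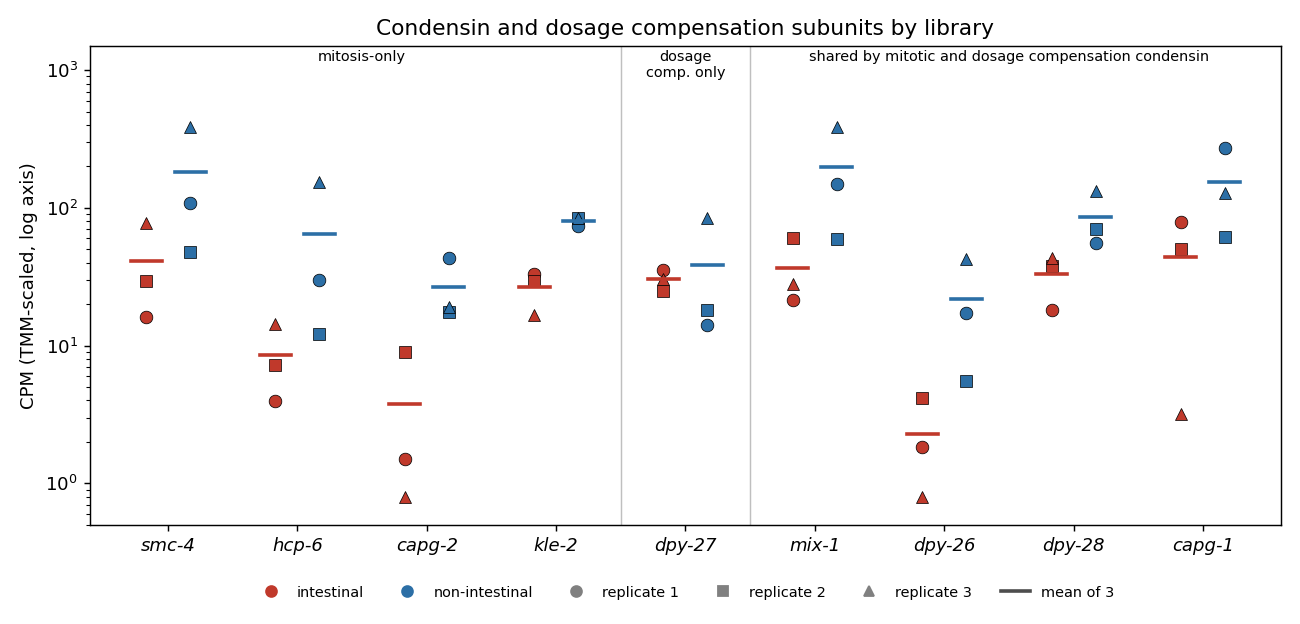
TMM-scaled CPM of the 9 subunits (log axis) in 3 intestinal libraries (red, left) and 3 non-intestinal libraries (blue, right), with marker shapes for replicate numbers and bars for group means. Intestinal values lie below the non-intestinal ones without overlap for capg-2, kle-2, dpy-26 and dpy-28, and the groups overlap for dpy-27, whose non-intestinal values run from 13.98 to 84.0 CPM.

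Among the mitosis-only subunits, smc-4 (F35G12.8, chromosome III, 4587501 to 4593124) encodes the SMC ATPase that pairs with MIX-1 in condensin I and condensin II. It had 16.0, 29.3 and 78.3 CPM in intestinal replicates 1, 2 and 3, against 108, 48.0 and 388 CPM in non-intestinal replicates 1, 2 and 3. Intestinal replicate 3 lay above non-intestinal replicate 2, but the intestinal library was lower within each number. Intestinal cells averaged 41.2 ± 32.8 CPM and non-intestinal cells 181 ± 181 CPM (SD, n = 3 each), with a log2 change of −2.16 ± 0.85 (± SE, adjusted p = 0.0997 by edgeR). With the replicate block smc-4 was called, at −1.94 (edgeR adjusted p = 0.027). Without non-intestinal replicate 3 the log2 fold change was −0.54 (edgeR adjusted p = 0.69), so its size changed with that library. Without both libraries numbered 3 the log2 fold change was −1.77 (edgeR adjusted p = 0.090).

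The other 3 mitosis-only genes encode the parts that set condensin II apart. The gene hcp-6 (Y110A7A.1, chromosome I, 5165148 to 5171313), which encodes a HEAT-repeat subunit, had 3.98, 7.18 and 14.4 CPM in intestinal libraries, against 29.9, 12.2 and 153 CPM in non-intestinal libraries. The groups overlapped narrowly, at intestinal replicate 3 and non-intestinal replicate 2. Its log2 fold change was −2.98 ± 1.00 (± SE, adjusted p = 0.057 by edgeR), and it was called with the block at −2.37 (edgeR adjusted p = 0.043). Without non-intestinal replicate 3 it was −0.99 (edgeR adjusted p = 0.51), and without both libraries numbered 3 it was −1.89 (edgeR adjusted p = 0.13).

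The second HEAT-repeat gene of condensin II, capg-2 (F55C5.4, chromosome V, 12271873 to 12275658), had 18, 156 and 1 counts in intestinal replicates 1, 2 and 3, against 272, 388 and 35 in non-intestinal libraries. On the CPM scale this was 1.49, 8.96 and 0.799 in intestinal and 43.2, 17.6 and 19.0 in non-intestinal libraries. Every intestinal library lay below every non-intestinal one. The log2 fold change was −2.72 ± 1.00 (± SE, adjusted p = 0.078 by edgeR), and it was −2.70 without non-intestinal replicate 3 (edgeR adjusted p = 0.082). Without intestinal replicate 2, which held the most counts of its group, capg-2 was called at −4.36 (edgeR adjusted p = 0.025).

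The kleisin gene of condensin II, kle-2 (C29E4.2, chromosome III, 7941717 to 7945593), varied little between libraries of one group. It had 33.3, 29.5 and 16.8 CPM in intestinal libraries, against 74.4, 83.7 and 84.5 CPM in non-intestinal libraries. The groups stood well apart and the non-intestinal values lay close together. The means were 26.5 ± 8.66 and 80.9 ± 5.65 CPM in intestinal and non-intestinal cells (SD, n = 3 each), with a log2 change of −1.60 ± 0.58 (± SE, adjusted p = 0.075 by edgeR). This difference did not pass the threshold by edgeR, but it did by DESeq2 (log2 fold change −1.54, DESeq2 adjusted p = 0.0055). Leaving out 1 library at a time kept the log2 fold change between −1.77 and −1.27. Of the 4 mitosis-only genes edgeR thus called 0 lower, beside 7.64% of genes tested. At an unadjusted p under 0.05, 4 were lower, beside 16.2% of genes tested. With the block 2 were called (beside 9.84%) and DESeq2 called 3 (beside 14.98%). For the 5 dosage compensation complex subunits, dpy-27 and the shared genes, the same counts were 1, 2, 1 and 2.

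The dosage compensation gene dpy-27 (R13G10.1, chromosome III, 3813018 to 3819679) encodes the SMC ATPase that replaces SMC-4 on the X chromosomes. It had 430, 437 and 38 counts in intestinal replicates 1, 2 and 3, against 88, 397 and 155 in non-intestinal libraries. As CPM this was 35.6, 25.1 and 30.4 in intestinal and 13.98, 17.98 and 84.0 in non-intestinal libraries. The intestinal values lay close together, between the lower pair of non-intestinal libraries and the highest one. The log2 fold change was −0.33 ± 0.78 (± SE, adjusted p = 0.79 by edgeR), at the median of all genes tested. Its sign turned on non-intestinal replicate 3, without which it was 1.17 (edgeR adjusted p = 0.32), and it was 0.16 with the replicate block (edgeR adjusted p = 0.90). No direction is therefore given for dpy-27.

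Among the shared subunits, mix-1 (M106.1, chromosome II, 10824246 to 10841424) encodes the SMC ATPase found in all condensins of the worm. It had 257, 1043 and 35 counts in intestinal and 935, 1322 and 708 counts in non-intestinal libraries. As CPM this was 21.3, 59.9 and 27.96 against 149, 59.9 and 384. The libraries numbered 2 were level, and the difference came from numbers 1 and 3. It was called lower, with a log2 change of −2.43 ± 0.75 (± SE, adjusted p = 0.042 by edgeR), and also with the block (−2.25, edgeR adjusted p = 0.0497). The call was lost without intestinal replicate 1 (edgeR adjusted p = 0.15), intestinal replicate 3 (0.09996), non-intestinal replicate 1 (0.067) or non-intestinal replicate 3 (0.23), and in the last case the log2 fold change was −1.24.

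The kleisin of condensin I and of the dosage compensation condensin is encoded by dpy-26 (C25G4.5, chromosome IV, 12445801 to 12451335). It was sparse, with 22, 73 and 1 counts in intestinal libraries, against 109, 123 and 79 counts in non-intestinal libraries. The CPM values were 1.82, 4.19 and 0.799 in intestinal and 17.3, 5.57 and 42.8 in non-intestinal libraries, without overlap. The log2 fold change was −3.14 ± 1.04 (± SE, adjusted p = 0.055 by edgeR), the lowest of the 9 subunits. With the block it was −2.84 (edgeR adjusted p = 0.11), without non-intestinal replicate 3 it was −1.996 (edgeR adjusted p = 0.25), and DESeq2 called it (−3.13, DESeq2 adjusted p = 0.0053).

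The HEAT-repeat subunits shared by condensin I and the dosage compensation condensin are encoded by dpy-28 and capg-1. The gene dpy-28 (Y39A1B.3, chromosome III, 10763131 to 10777076) had 18.1, 37.9 and 43.1 CPM in intestinal libraries, against 55.9, 69.9 and 133 CPM in non-intestinal libraries. Its groups did not overlap, yet the log2 fold change of −1.39 ± 0.63 (SE) was not called (edgeR adjusted p = 0.15). Without non-intestinal replicate 3 it was −0.66 (edgeR adjusted p = 0.55), and without both libraries numbered 3 it was −1.16 (edgeR adjusted p = 0.21).

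The gene capg-1 (F29D11.2, chromosome I, 7634492 to 7639785) had 958, 868 and 4 counts in intestinal libraries, against 1703, 1355 and 237 counts in non-intestinal libraries. As CPM this was 79.4, 49.9 and 3.20 in intestinal and 271, 61.4 and 128 in non-intestinal libraries. The low value of intestinal replicate 3 and the high value of non-intestinal replicate 1 carried most of the difference, and the groups overlapped. The log2 fold change was −1.78 ± 0.92 (± SE, adjusted p = 0.20 by edgeR). It was −1.22 without intestinal replicate 3 (edgeR adjusted p = 0.26) and −0.90 without non-intestinal replicate 1 (edgeR adjusted p = 0.57).

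**Figure D2:**
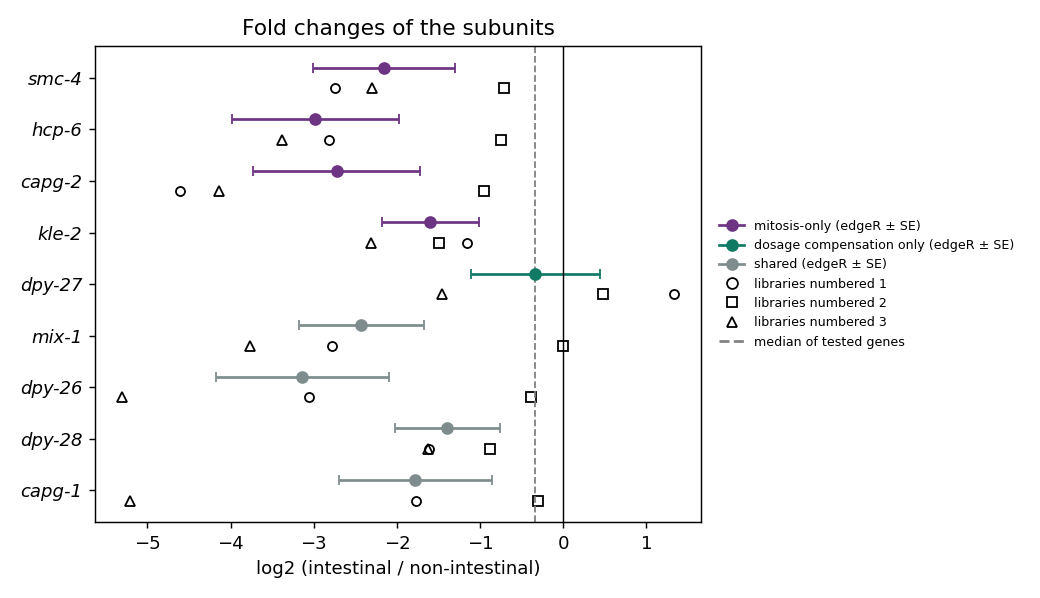
Log2 fold changes of intestinal over non-intestinal cells for the 9 subunits, as edgeR estimates ± SE (filled, coloured by the complex they serve) and within libraries of the same replicate number (open, from log2 CPM with a prior count of 3). The libraries numbered 2 lie nearest to 0 for 8 of the 9 subunits, all but kle-2, and dpy-27 spans values from −1.46 to 1.33.

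Gene models of some subunits overlap others on the opposite strand, and whether counting used strand is not stated in the sources used here. Exons of mix-1 share 43 bases with M106.8, those of hcp-6 share 39 with spd-5, those of kle-2 share 52 with gsto-1 and those of capg-2 share 89 with bnc-1. On the same strand, dpy-26 shares 84 bases of exon with C25G4.3. The annotated end of dpy-27 also differs between Ensembl and RefSeq models of WBcel235 (3813018 and 3813644 on the minus strand), which bears on reads from 3′ ends. Values of these genes are uncertain to that extent.

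The exchange between DPY-27 and SMC-4 sets the dosage compensation condensin apart from condensin I, so their counts were compared within each library, where scaling of libraries has no part. There were 2.23, 0.857 and 0.388 counts of dpy-27 per count of smc-4 in intestinal replicates 1, 2 and 3, against 0.129, 0.375 and 0.217 in non-intestinal replicates 1, 2 and 3. Every intestinal library lay above every non-intestinal one, though intestinal replicate 3 was close to non-intestinal replicate 2. On the log2 scale with a pseudocount of 0.5 the ratio was −0.14 ± 1.26 in intestinal and −2.19 ± 0.77 in non-intestinal libraries (SD, n = 3 per group). The difference of 2.05 gave p = 0.1 by an exact permutation test, two-sided, the smallest that 3 libraries against 3 allow, so the design cannot pass 0.05. As pairs of the same number the difference was positive for 3 of 3 numbers (exact sign-flip p = 0.25, the smallest possible). It was 2.04 without non-intestinal replicate 3, and the lowest value with 1 library left out was 1.40, without intestinal replicate 1. This is a difference in the ratio of transcripts between groups and not a comparison of the levels of the 2 genes, which depend on how well each 3′ end is captured. The log2 fold change of dpy-27 lay at the median of all genes tested, and that of smc-4 lay at −1.82 relative to that median. Ratios of genes other than dpy-27 to smc-4 were not computed, so the shift is not shown to be particular to this pair.

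Ratios of dpy-27 to the other subunits are given as description. The log2 ratio of dpy-27 to mix-1 was 0.74, −1.25 and 0.12 in intestinal libraries, against −3.40, −1.73 and −2.19 in non-intestinal libraries. The groups were also without overlap, with intestinal libraries higher, for the ratios to hcp-6, dpy-26 and dpy-28. They overlapped for the ratios to kle-2, capg-1 and capg-2. All of these ratios share the counts of dpy-27, so they are not separate results. The CPM values of dpy-26 and dpy-28 were without overlap on their own, and ratios of dpy-27 to other genes were not computed.

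**Figure D3:**
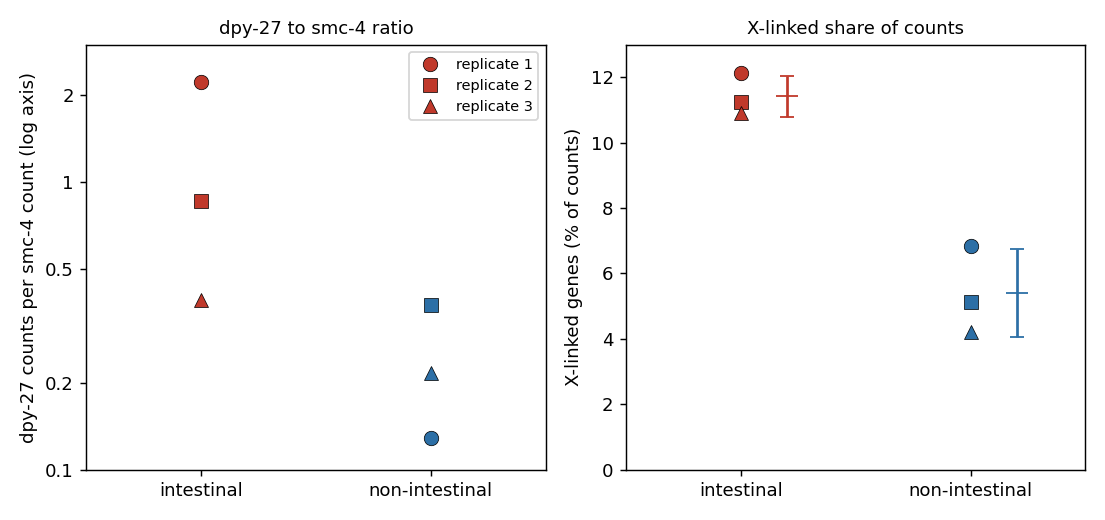
Left, counts of dpy-27 per count of smc-4 (log axis) in each library; right, percent of worm gene counts from X-linked genes, with group mean ± SD beside the points. Intestinal libraries (red, left) lie above non-intestinal libraries (blue, right) in both panels, at 0.388 to 2.23 against 0.129 to 0.375 dpy-27 counts per smc-4 count and at 10.9% to 12.1% against 4.21% to 6.85% of counts.

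The target of DPY-27 is the X chromosome, so the share of counts from X-linked genes was measured next. None of the 9 subunits is X-linked. X-linked genes gave 12.1%, 11.2% and 10.9% of counts in intestinal replicates 1, 2 and 3, against 6.85%, 5.14% and 4.21% in non-intestinal replicates 1, 2 and 3. The groups lay far apart, at 11.4% ± 0.62 in intestinal and 5.40% ± 1.34 in non-intestinal libraries (SD, n = 3 per group). The difference of 6.02 percentage points gave p = 0.1 by an exact permutation test, two-sided, the smallest possible (exact sign-flip p over the pairs 0.25, also the smallest). With 1 library left out it ran from 5.43 to 6.74.

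The fold changes of single genes differed by chromosome as well. The 1233 tested X-linked genes had a median log2 fold change of 0.72, against −0.45 for 7876 tested autosomal genes. Of the X-linked genes 21.7% were called higher and 1.38% lower in intestinal cells, against 12.3% and 8.62% of autosomal genes (edgeR adjusted p under 0.05). Among the autosomes the medians ran from −0.61 for chromosome I to −0.13 for chromosome V. As background, the X chromosomes are largely silent in worm germ cells, which also lack the dosage compensation condensin. Germline markers were lower in intestinal cells, as given above, and their part in the X-linked share and in the subunit values was not tested.

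The genes of proteins that work with the dosage compensation condensin gave no call. The list held sdc-1, sdc-2 and sdc-3, which recruit the complex to X, dpy-30, which also serves the MLL-type methyltransferase complex, and dpy-21, a demethylase of histone H4 lysine 20. By edgeR 0 of these 5 were called, beside 7.64% of all genes tested called lower and 13.5% called higher. At an unadjusted edgeR p under 0.05 the count was also 0, beside 16.2% of all genes tested that were lower. DESeq2 called 0, beside 14.98% called lower. With only 5 genes, counts of 0 do not set this list apart from all genes tested. The hermaphrodite-specific gene sdc-2 had 2.07, 7.12 and 16.8 CPM in intestinal libraries, against 3.496, 1.86 and 32.5 CPM in non-intestinal libraries, and the groups overlapped. Its log2 fold change was −0.56 ± 1.22 (± SE, adjusted p = 0.78 by edgeR). The levels of dpy-21 were 160, 127 and 232 CPM in intestinal libraries and 191, 227 and 499 CPM in non-intestinal ones, lower in the intestinal library of each number, with a log2 change of −0.82 ± 0.52 (± SE, adjusted p = 0.30 by edgeR). For sdc-1, sdc-3 and dpy-30 it was 0.41 ± 1.11, −1.15 ± 1.61 and −0.45 ± 0.53 (± SE, adjusted p = 0.82, 0.65 and 0.59 by edgeR). Counts were few for sdc-1 (29, 43 and 10 in intestinal, 19, 86 and 4 in non-intestinal libraries). The same held for sdc-3 (0, 65 and 6 against 18, 24 and 27), so a change in either could be missed.

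The substrate-side enzymes were not called either. The methyltransferase gene set-1, whose product puts the first methyl group on histone H4 lysine 20, had 3.48, 7.81 and 0.799 CPM in intestinal libraries and 21.3, 28.8 and 20.1 CPM in non-intestinal ones. These did not overlap, with a log2 change of −2.45 ± 0.89 (± SE, adjusted p = 0.077 by edgeR, and 0.0078 by DESeq2). The gene set-4, for the enzyme that adds further methyl groups, had a log2 change of −0.61 ± 1.22 (± SE, adjusted p = 0.75 by edgeR). Of the 2 genes 1 had an unadjusted p under 0.05 by edgeR, beside 16.2% of all genes tested that were lower at that threshold.

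Genes that count X chromosomes and set the sexual fate gave 2 calls among 6 tested, both lower in intestinal cells, beside 7.64% of all genes tested. The nuclear receptor gene sex-1, an X-signal element that represses xol-1, had 2.32, 0.574 and 0 CPM in intestinal libraries and 35.1, 64.9 and 4.34 CPM in non-intestinal ones, with a log2 change of −4.91 ± 1.24 (± SE, adjusted p = 0.018 by edgeR). The sex-determining gene fem-3 had −3.39 ± 0.90 (± SE, adjusted p = 0.022 by edgeR). The switch gene xol-1 had 2 counts in intestinal replicate 1 and 0 counts in the other 5 libraries.

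Cohesin, the SMC ring that holds sister chromatids together, had lower transcript levels in intestinal cells for more than one subunit. Of its 12 listed genes 7 were called lower and 0 higher, beside 7.64% and 13.5% of all genes tested, with a median log2 fold change of −2.18. The core SMC gene smc-3 had 48.8, 46.7 and 32.8 CPM in intestinal libraries, against 161, 79.1 and 365 CPM in non-intestinal libraries, with a log2 change of −2.23 ± 0.64 (± SE, adjusted p = 0.031 by edgeR). The other core SMC gene, him-1, was not called (−0.21, edgeR adjusted p = 0.82), and its sign changed with the libraries left out. Called as well were the mitotic kleisin gene scc-1 (−2.83), scc-3 (−1.69), the loader gene scc-2 (−2.34) and the meiotic kleisin genes rec-8 (−3.85), coh-3 (−3.42) and coh-4 (−5.65), with edgeR adjusted p from 0.0046 to 0.047. Meiotic kleisins are germline genes. Germline markers were also lower in intestinal cells, as given above, and their part in these calls was not tested. Under the replicate block scc-2 was not called (edgeR adjusted p = 0.053).

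The genes smc-5 and smc-6, of the SMC-5/6 complex, and top-2, for the topoisomerase that untangles DNA beside condensin, were all called lower. Over all genes tested, 7.64% were called lower. The log2 fold change was −4.10 ± 1.10 for smc-5, −3.42 ± 0.90 for smc-6 and −1.94 ± 0.55 for top-2 (± SE, adjusted p = 0.023, 0.022 and 0.029 by edgeR). With each of the 6 libraries left out in turn, smc-5, smc-6 and top-2 were still called in 4, 3 and 1 of the fits. For top-2 the levels were 37.4, 106 and 61.5 CPM in intestinal libraries and 225, 344 and 221 CPM in non-intestinal ones.

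Over the 5 pathway lists 12 of 28 tested genes were called lower and 0 higher, beside 7.64% and 13.5% of all genes tested. Of these only coh-4 was called whichever of the 6 libraries was left out. The calls of scc-1, scc-2 and rec-8 were lost whichever was left out, at edgeR adjusted p from 0.053 to 0.26. Of the 12, 2, 5 and 6 were still called without intestinal replicates 1, 2 and 3, and 3, 4 and 4 without non-intestinal replicates 1, 2 and 3. Without non-intestinal replicate 3 the log2 fold changes of smc-3, scc-3, scc-2, rec-8 and smc-6 were −1.22, −1.17, −1.41, −2.35 and −1.85 (edgeR adjusted p = 0.18, 0.195, 0.26, 0.22 and 0.12).

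**Figure D4:**
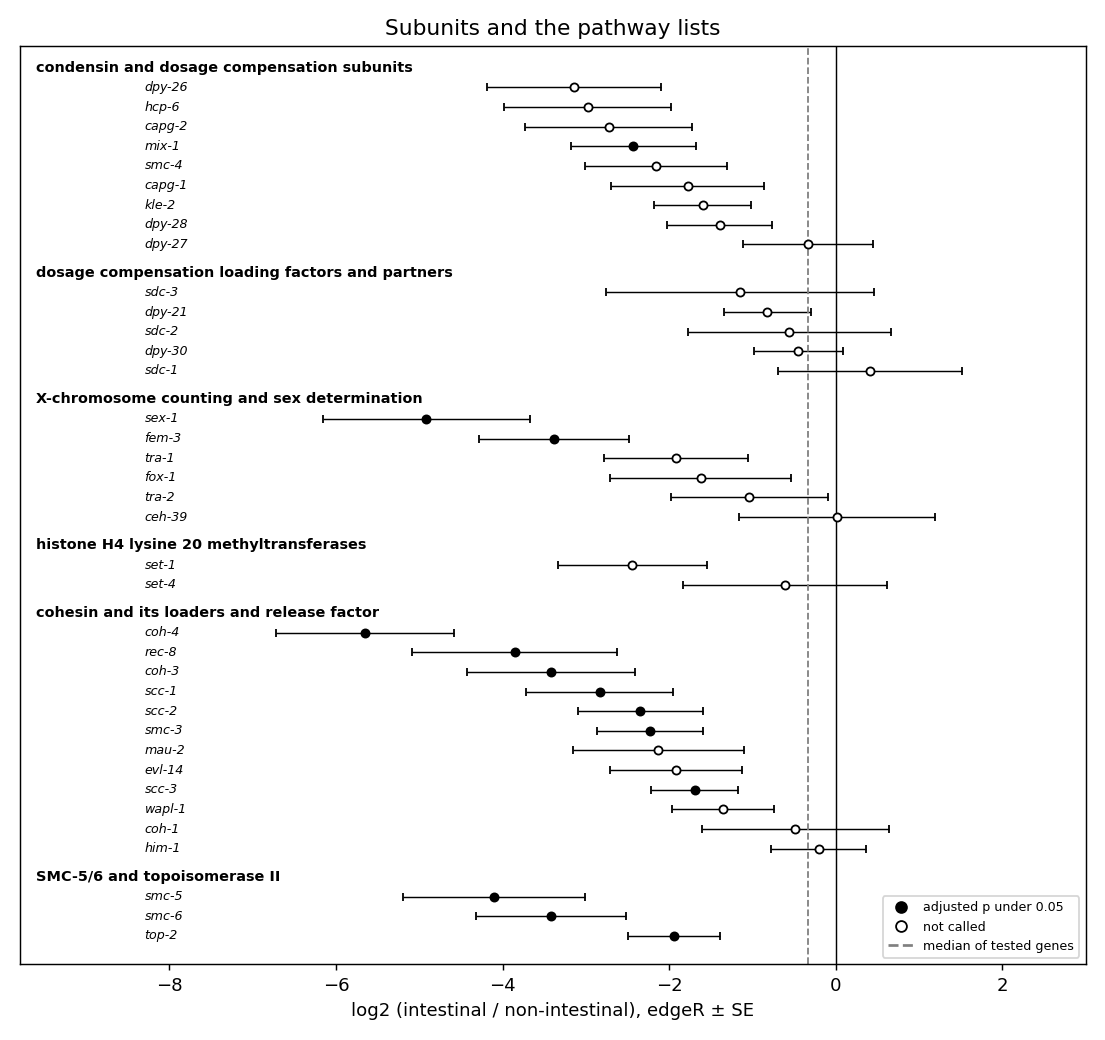
Log2 fold changes of intestinal over non-intestinal cells (edgeR ± SE) for the 9 subunits and the 28 tested genes of the pathway lists, with filled points for an adjusted p under 0.05. Calls lie in the cohesin, SMC-5/6 and topoisomerase, and sex determination lists. Of the 5 loading factors and partners 4 lie below the median of the tested genes, −0.34, marked by the dashed line, and sdc-1 lies above it.

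Over the 6 libraries, mix-1 and dpy-26 followed the mean log2 CPM of the 9 subunits most closely (Pearson r = 0.98 and 0.99, as members of that mean), and dpy-27 least (r = 0.27). Among 4594 other genes with average expression above the median, the nearest profiles were those of spd-5 (r = 0.996), B0001.5 (0.995), drh-3 (0.994), cdk-11.1 (0.991) and cec-10 (0.991). The gene spd-5 encodes a scaffold of the centrosome, and its exons overlap those of hcp-6. It had 2.24, 8.16 and 1.598 CPM in intestinal libraries and 38.5, 12.7 and 113 CPM in non-intestinal ones, with the highest value again in non-intestinal replicate 3. These correlations describe 6 libraries that share 2 groups and the same differences in depth.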

How the data were processed

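The authors deposited 1 table of raw counts per row and library with no normalization; STARsolo 2.7.10a and the builds WBcel235 and ce11 are named per the submitters' processing notes. The annotation, strand setting and use of molecular identifiers are not given in the sources used here, so counts may include amplification copies, and floors cover counting error only. Of 15472 rows, 14605 were worm genes; 825 RIT rows, 41 spike-in rows and 1 reporter row, under 1% of counts, stayed out. Symbols came from RefSeq WBcel235 (14387 rows matched) and positions from Ensembl WBcel235. No sequences were at hand to print.

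Groups were compared with the edgeR 4.0.16 quasi-likelihood test in R 4.3.3 (TMM, robust, group as the only term), adjusted by Benjamini-Hochberg over 9203 genes and called under 0.05. Genes were filtered by filterByExpr by group, with its minimum count set to 10 and its minimum total to 15. This does not require 10 counts in each library. SE came from the ratio of fold change to the root of F. CPM used TMM-scaled totals. DESeq2 1.42.0, 2 other scalings, 2 other filters, a replicate block, equal depth and leaving out each library were alternatives. The fit was tested on simulated counts.

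Same-numbered libraries deviated together from their group means (r = 0.278, 0.157 and 0.279 across genes; other pairs from −0.256 to 0.0695), so the numbers were taken as pairs. The labels call the libraries biological replicates without naming their cultures.

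The named genes were the 9 subunits, called genes of 5 pathway lists, the loading factors, set-1, set-4, top-2 and the 5 nearest profiles. The genes him-1, xol-1 and the overlap partners were added after their values were seen. The members and lists were chosen with earlier results of these data known. In the lists, 30 of 31 pathway genes and 44 of 44 marker genes were in the table.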

Additional observations from a re-analysis of the deposited data

Results flagged for a closer look

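No library was tested as an outlier, since each group holds only 3. Rows outside the comparisons also carried signal. The RIT rows, whose names the sources used here do not explain, had 7892 counts or more in each library, and spike-in RNAs had 33 or more, where the floor for a count of 0 is 3.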

How the results depend on the processing

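Of all genes tested, DESeq2 called 3057 in all and 1379 lower, and library totals alone gave 1329 lower. Leaving out 1 library gave from 986 to 1913 called, from 788 to 1393 higher and from 198 to 647 lower. The number of subunits called was 2 under RLE scaling (beside 8.46% of genes tested called lower), 5 under library totals alone (14.4%), 5 with no filter (6.51%), 3 with a filter of 10 counts (12.6%), 5 by DESeq2 (14.98%), 3 under the replicate block (9.84%) and from 0 to 2 with 1 library left out. Pathway genes called numbered from 2 to 6 with 1 library left out. Without both libraries numbered 3, 0 subunits and 5 pathway genes were called. Over all genes tested the median log2 fold change was −0.84 with library totals alone, −0.28 with RLE factors and −0.34 with TMM, and 8 of the 9 subunits lay below that median each time. Which property of a library moved these counts was not tested.

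The log2 fold change of dpy-27 was 0.16 under the replicate block, 0.93 without both libraries numbered 3, and from −0.45 to 1.17 with 1 library left out. For sdc-2 it was 0.040 under the block, 0.81 without both libraries numbered 3, and from −1.37 to 2.04 with 1 left out. For him-1 it was 0.13 without both, and from −0.54 to 0.23 with 1 left out. For sdc-1 it was −0.50 without both, and from −0.31 to 1.09 with 1 left out. The ranges with 1 left out also crossed 0 for sdc-3 (−1.62 to 0.82), dpy-30 (−0.70 to 0.42), dpy-21 (−1.06 to 0.023) and set-4 (−1.52 to 0.012). The other subunits and the other pathway genes tested and named kept their sign in each alternative run. At equal depth dpy-26 was not tested. The dpy-27 to smc-4 ratio (difference 1.40 to 2.65) and the X-linked share (5.43 to 6.74) kept their direction in each alternative; under the block they were 2.05 and 6.02 on average. Intestinal replicate 3 held 1 to 98 counts per subunit, which limits the precision of its values.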
